A study of Homo sapiens with 3 samples.

Results

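Between day 3 and day 5 of doxycycline, 8090 protein-coding genes could be compared in LoVo cells carrying an inducible hairpin against HRD1. They were taken from 58243 genes in the deposited tables, 19818 of them protein-coding. A member had a mean of at least 100 unique reads over the day 3 and day 5 libraries, which 10251 protein-coding genes reached, and at least 90% of its reads in those libraries placed uniquely. LoVo is an established human colorectal cancer line of epithelial origin. All cells of the series carry a Tet-On short hairpin RNA against HRD1, the ubiquitin ligase encoded by SYVN1. The hairpin is switched on by doxycycline at 1 µg/ml, and the groups are cells kept for 0, 3 or 5 days on the drug, with 1 RNA-seq library each. The labels describe 1 hairpin line, name no control hairpin and give no arm with drug but no hairpin, so time on doxycycline, time on the hairpin and time in culture cannot be told apart. With 1 library a side there is no replicate check: sizes are described, no test was made, and every bracket below is a 95% exact (Clopper-Pearson) interval for counting error only. The labels give no molecular identifiers, and reads copied by PCR are not independent molecules.

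HRD1 sits in the membrane of the endoplasmic reticulum (ER) and marks misfolded proteins for export and destruction by the proteasome, a route called ER-associated degradation (ERAD). When misfolded proteins build up, the unfolded protein response starts from 3 sensors: ATF6 and IRE1 (through XBP1) raise chaperones and ERAD factors, and PERK slows translation while letting ATF4 be made. ATF4 in turn raises genes for amino acid synthesis, amino acid uptake and tRNA charging. In secretory epithelia these branches set how much protein the ER can fold.

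The targeted transcript was measured first. SYVN1 stood at 63.1 normalised CPM (unique reads scaled to library size) at day 0, 34.0 at day 3 and 30.6 at day 5, from 1210, 646 and 704 unique reads. Both libraries on doxycycline were thus lower than day 0, and they lay close to each other, with a log2 ratio of day 5 over day 3 of −0.15 [−0.31, 0.00]. With the trends on transcript GC content and exon length described below taken out, that ratio was −0.03 [−0.19, 0.12].

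Several ER chaperones have known stress response elements in their promoters. Promoters of 3 of them, picked with their lower day 5 values known, are shown because each holds a stress element; all members whose promoters hold these elements are described further on. The sequences come from RefSeq on GRCh38.p14 and span 250 bases before to 50 bases after the start site: HSPA5 at chr9:125241294-125241593 on the minus strand, SDF2L1 at chr22:21642052-21642351 and CRELD2 at chr22:49918384-49918683, both on the plus strand. Capitals mark the match to the ER stress response element (ERSE: CCAAT and CCACG with 9 free bases between them) or to ERSE-II (ATTGG and CCACG with 1 free base between them), each searched on both strands, so that a match on the opposite strand reads as the reverse complement.
HSPA5: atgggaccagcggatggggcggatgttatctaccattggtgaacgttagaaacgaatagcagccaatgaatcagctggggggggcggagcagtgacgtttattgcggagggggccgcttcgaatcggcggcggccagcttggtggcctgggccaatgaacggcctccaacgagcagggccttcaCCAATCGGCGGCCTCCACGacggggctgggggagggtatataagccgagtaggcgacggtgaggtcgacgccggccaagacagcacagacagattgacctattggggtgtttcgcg
SDF2L1: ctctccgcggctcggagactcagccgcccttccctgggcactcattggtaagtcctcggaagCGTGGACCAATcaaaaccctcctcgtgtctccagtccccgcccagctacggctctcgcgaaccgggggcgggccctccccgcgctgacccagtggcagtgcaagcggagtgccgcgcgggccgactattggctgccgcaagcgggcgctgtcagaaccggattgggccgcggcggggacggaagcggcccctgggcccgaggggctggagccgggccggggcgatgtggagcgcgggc
CRELD2: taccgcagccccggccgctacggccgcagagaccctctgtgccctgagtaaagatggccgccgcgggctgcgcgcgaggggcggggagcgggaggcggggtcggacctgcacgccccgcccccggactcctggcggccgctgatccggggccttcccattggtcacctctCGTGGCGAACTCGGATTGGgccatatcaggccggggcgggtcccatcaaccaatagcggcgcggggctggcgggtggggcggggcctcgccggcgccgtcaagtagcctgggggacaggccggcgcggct
HSPA5 and CRELD2 each held 1 ERSE match, and SDF2L1 held 1 ERSE-II match. These letters did not occur in the same window of PHGDH, CHCHD10 or HES4, and the composite site read by ATF4 (TGATGNAA) occurred in none of these 6 windows.

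The genes of these promoters were higher at day 3 than at day 0 and stood between those levels at day 5. Medians of some lists outside the stress response were also higher at day 3, as given further on. HSPA5 encodes BiP, the main HSP70 chaperone of the ER and a standard readout of ER stress. Its level was 1206 normalised CPM at day 0, 1980 at day 3 and 1654 at day 5, a log2 ratio of day 5 over day 3 of −0.26 [−0.28, −0.24] and −0.25 with trends removed. BiP mRNA at day 5 thus lay below day 3 but above day 0 (log2 0.46 over day 0, against 0.72 for day 3 over day 0; both ratios share the day 0 library, and the ratios of day 3 over day 0 and day 5 over day 3 share the day 3 library). SDF2L1, a subunit of an ER chaperone complex (chr22:21642261-21644298 on GRCh38, as are all gene positions below), was at 49.97, 76.35 and 55.03 normalised CPM on days 0, 3 and 5. Its log2 ratio of day 5 over day 3 was −0.47 [−0.58, −0.36], and −0.25 [−0.36, −0.14] with trends removed. CRELD2, a secreted ER stress protein (chr22:49918167-49927540), was at 37.0, 54.4 and 39.4 normalised CPM, with a log2 ratio of −0.47 [−0.60, −0.34] and −0.36 [−0.49, −0.23] with trends removed. Both were near their day 0 level by day 5, with log2 ratios of day 5 over day 0 of 0.14 [0.02, 0.26] and 0.09 [−0.06, 0.23]. Trends were not removed from any ratio or level set against day 0. HERPUD1, an ERAD scaffold that binds HRD1 and has an ERSE-II promoter, was at 96.8, 154.8 and 132.9 normalised CPM, a log2 ratio of −0.22 [−0.29, −0.15] and −0.21 with trends removed. XBP1, the transcription factor spliced by IRE1, was at 68.5, 96.3 and 78.7 normalised CPM, a log2 ratio of −0.29 [−0.39, −0.20] and −0.35 with trends removed. Gene counts do not separate its spliced from its unspliced form.

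PHGDH, the first enzyme of serine synthesis and a gene raised by ATF4 (chr1:119648411-119744226), was at 94.2 normalised CPM at day 0, 130.2 at day 3 and 94.4 at day 5. Its log2 ratio of day 5 over day 3 was −0.46 [−0.55, −0.38] and −0.45 with trends removed, so day 5 sat on the day 0 level. ATF4 itself was at 290.7, 377.1 and 350.4 normalised CPM. Its log2 ratio of −0.11 [−0.15, −0.06] turned to 0.07 [0.03, 0.12] once the trends were removed, so no direction can be given for it.

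**Figure D1:**
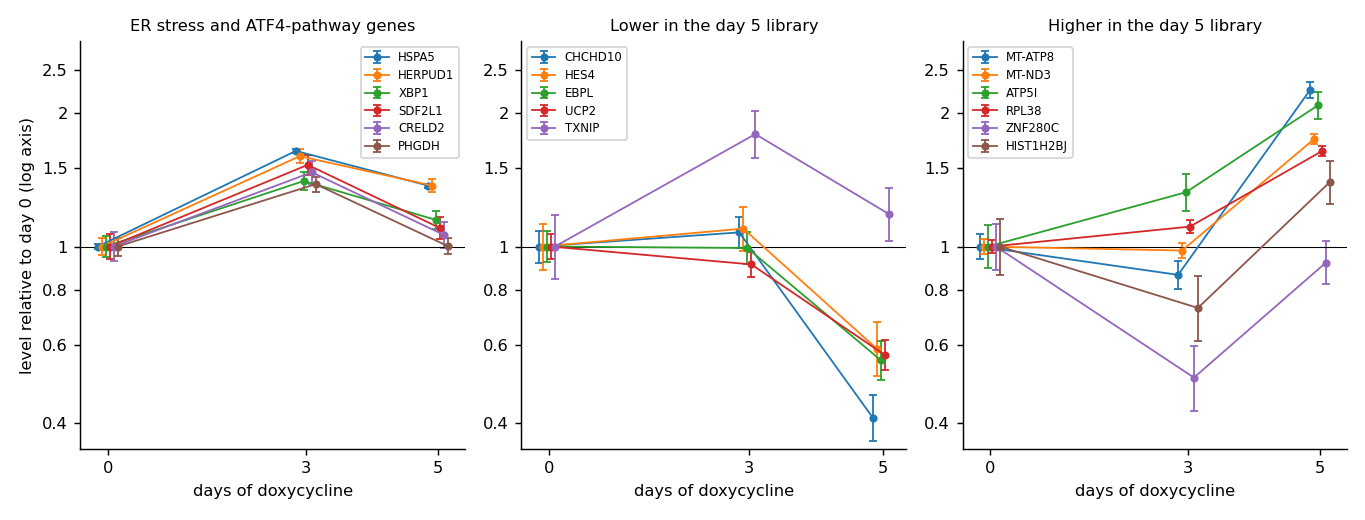
Level of 17 genes at 0, 3 and 5 days of doxycycline, each divided by its own day 0 level (log axis), with 95% exact Poisson intervals for counting error and 1 library per time. The 6 stress genes on the left peak at day 3, CHCHD10 is the lowest at day 5 in the middle panel, and MT-ATP8 is the highest at day 5 on the right.

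Across all 8090 members the day 5 and day 3 libraries were close. The median log2 ratio was 0.00, and 95% of genes lay between −0.40 and 0.47. In all, 98.9% of members were within 1.5-fold of their day 3 level, and 85.8% were within 0.32 of 0 on the log2 scale, the smaller limit used below. A gene was counted as higher or lower where it passed a limit and its counting interval excluded a ratio of 1. At 1.5-fold, 61 genes (0.754% of members) were counted higher and 27 (0.334%) lower; without TMM scaling, that is on plain library totals, the split was 132 higher and 12 lower. At the log2 limit of 0.32, 653 genes (8.07%) were higher and 466 (5.76%) lower. At 2-fold, 2 genes (0.0247%) were higher and 1 (0.0124%) lower: MT-ATP8 and CAVIN4 above, CHCHD10 below. With the trends described next removed the counts were the same, but HIST1H2BJ (1.02) took the place of CAVIN4 (0.98). CAVIN4, a muscle caveola protein with 66 unique reads at day 3 and 161 at day 5, is named after its values were seen. Of those reads, 25.1% were intron reads.

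The ratio followed the base composition and length of the transcript. In the eighth of members with the lowest GC content the median log2 ratio was 0.21, and it declined through every eighth to −0.18 in the highest. By exon length it went from −0.12 in the shortest eighth to 0.15 in the longest. Genes counted higher at 1.5-fold had a median GC content of 39.9% and those counted lower 59.0%, against 47.5% for all members. Spearman's rho between log2 ratio and GC content was −0.61 across the 8090 genes, a description only, since genes of the same pair of libraries are not independent. Ratios are therefore also given after smooth trends on GC content and exon length were subtracted ("trends removed"). The spread then narrowed from an SD of 0.224 to 0.176 on the log2 scale, and 37 genes (0.457%) were counted higher and 15 (0.185%) lower at 1.5-fold. Of these, 22 and 10 were also counted before removal. At the 0.32 limit the counts became 292 (3.61%) and 208 (2.57%). A smaller slope with abundance remained: the least abundant eighth of members had a median of 0.08 and the most abundant −0.09, or 0.06 and −0.06 with trends removed. Genes counted higher at 1.5-fold had a median of 10% of their unique reads in introns, those counted lower 4.52% and all members 4.14%. The 643 members with more than 20% had a median log2 ratio of 0.13, or 0.12 with trends removed. What produced these slopes and differences was not tested.

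**Figure D2:**
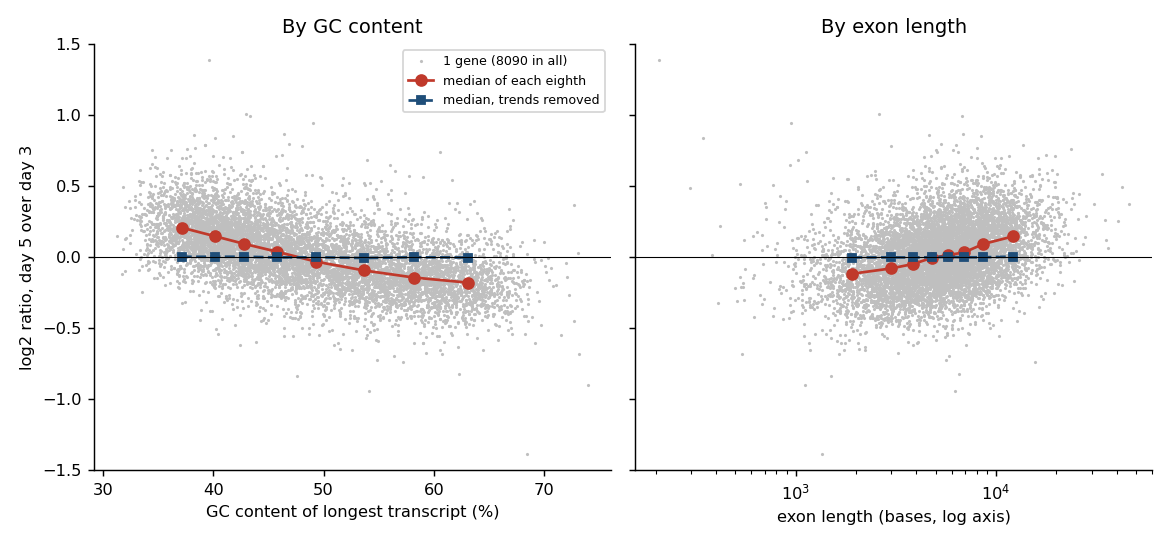
Log2 ratio of day 5 over day 3 for 8090 genes against transcript GC content (left) and exon length (right, log axis), with the median of each eighth of genes before and after trend removal. The median runs from 0.21 to −0.18 along GC content and from −0.12 to 0.15 along length, and is flat at 0.00 after removal.

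Gene lists put the single stress genes in context. Of 28 listed ER chaperones and ATF6 targets 18 were members, 9 others having too few of their reads unique and 1 too few reads. Of the 18, 11 were below day 3, where 49.3% of all members were, and 14 were below with trends removed (50.2% of all members). The list's median log2 ratio was −0.12 both before and after removal, against 0.00 for all members. At the 0.32 limit, SDF2L1 and CRELD2 were counted lower (5.76% of all members were) and none higher. With trends removed CRELD2 alone was counted lower (2.57% of all members were). The list was not uniform. PPIB, an ER prolyl isomerase, was at 289.1, 409.3 and 327.9 normalised CPM on days 0, 3 and 5, a log2 ratio of −0.32 [−0.37, −0.27] and −0.17 with trends removed. HSP90B1, the ER HSP90, was at 822.6, 1232 and 1118, a ratio of −0.14 [−0.17, −0.12] and −0.24 with trends removed. MANF, a secreted ER stress protein, went the other way, at 88.1, 120.4 and 131.6 normalised CPM with a log2 ratio of 0.13 [0.05, 0.21] and 0.25 with trends removed. DNAJC3, the BiP cochaperone that restrains PERK, was at 59.2, 56.0 and 63.9, a ratio of 0.19 [0.08, 0.31] and 0.05 with trends removed.

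Of 43 listed PERK and ATF4 targets 29 were members, 10 others failing on unique reads and 4 on read number. Of the 29, 21 were below day 3 (49.3% of all members were) and 4 were counted lower at the 0.32 limit (5.76% of all members), with 1 higher (8.07%). The median was −0.15, or −0.06 with trends removed, when PHGDH alone was still counted lower (2.57% of all members were). CHAC1, a glutathione-degrading enzyme, was at 11.9, 19.0 and 14.1 normalised CPM, a log2 ratio of −0.43 [−0.65, −0.21] and −0.21 [−0.43, 0.01] with trends removed. TRIB3, a pseudokinase that feeds back on ATF4, was at 67.4, 96.5 and 78.0, a ratio of −0.31 [−0.40, −0.21] and −0.11 with trends removed. JDP2, a transcription factor that dimerises with the AP-1 family, had 132 and 122 unique reads at day 3 and day 5 and a ratio of −0.39 [−0.76, −0.03] and −0.35 with trends removed. Against these, the amino acid transporter SLC38A2 was at 670.0, 579.9 and 778.5 normalised CPM, a log2 ratio of 0.42 [0.39, 0.46] and 0.24 with trends removed. GDF15, a secreted stress cytokine, was at 20.1 normalised CPM at day 3 and 20.2 at day 5, a ratio of 0.01 [−0.19, 0.21] that became 0.23 [0.04, 0.43] with trends removed. DDIT3, DDIT4, ASNS and SLC7A11 were no members, because 52.5%, 59.7%, 3.95% and 31.6% of their reads were unique. ASNS, with a mean of 82.5 unique reads, also failed on read number and is counted there. Before scaling, unique reads at day 3 and day 5 were 366 and 349 for DDIT3 and 1239 and 1065 for DDIT4. They were 76 and 89 for ASNS, and 992 and 1916 for SLC7A11.

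The 19 measured XBP1 and IRE1 targets had a median of −0.09, or −0.05 with trends removed, but 0.01 on the authors' TPM. None was counted at the 0.32 limit. With trends removed XBP1 and DNAJB9 were counted lower (2.57% of all members were). DNAJB9, an IRE1-linked cochaperone, was at 7.09, 10.8 and 8.90 normalised CPM, with a ratio of −0.28 [−0.56, 0.01] and −0.35 [−0.64, −0.06] with trends removed. TRAM1, a translocon partner, was at 171.2, 171.5 and 208.3, a ratio of 0.28 [0.22, 0.35] and 0.15 with trends removed. The 45 ERAD genes had a median of −0.01. Within them RNF139, an ER ubiquitin ligase, was at 10.8, 14.1 and 10.2 normalised CPM (log2 ratio −0.46 [−0.72, −0.20], and −0.46 with trends removed), and UGGT2, a glycoprotein folding sensor, at 19.2, 15.9 and 22.8 (0.52 [0.31, 0.73], and 0.31 with trends removed, which is inside the 0.32 limit). All 6 members of the signal recognition particle and its receptor, which bring new secretory proteins to the ER, were below day 3 with trends removed (50.2% of all members were). SRP14, its Alu-domain subunit, was at 221, 265 and 214 normalised CPM, a log2 ratio of −0.31 [−0.36, −0.25] and −0.32 with trends removed, the lowest of the 6. Of 19 cytosolic tRNA synthetases, 16 were below day 3 (49.3% of all members were), the median was −0.13, and none was counted at the 0.32 limit. Their median level was 227.6 normalised CPM, and the most abundant eighth of all members had a median of −0.09. AARS, which charges alanine tRNA, was at 258.1, 332.1 and 272.8 normalised CPM (−0.28 [−0.33, −0.23], and −0.18 with trends removed).

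Lists outside the stress response had medians close to these. The 24 housekeeping reference genes had a median of −0.11 (−0.09 with trends removed), with 18 below day 3 (49.3% of all members were). At the 0.32 limit 6 were counted lower (5.76% of all members), or 2 with trends removed (2.57% of all members). ACTB, cytoplasmic actin, was at 7858, 8563 and 6297 normalised CPM, a log2 ratio of −0.44 [−0.45, −0.43] and −0.29 with trends removed. The 34 proteasome subunits had a median of −0.12 (−0.12), and the 57 cytosolic ribosomal proteins −0.17 (−0.12). For day 3 over day 0, medians were 0.12 for housekeeping genes, 0.17 for proteasome subunits and 0.31 for ribosomal proteins. For day 5 over day 0 they were −0.0004, 0.06 and 0.13. The ER chaperones had 0.34 and 0.17, PERK and ATF4 targets 0.34 and 0.21, and all members 0.02 and 0.02. Higher medians at day 3 were thus not confined to the stress lists. The lower level of HSPA5, SDF2L1, CRELD2, XBP1 and PHGDH at day 5 is a measured value of those genes. Whether the stress lists stood apart from these other lists was not tested.

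**Figure D3:**
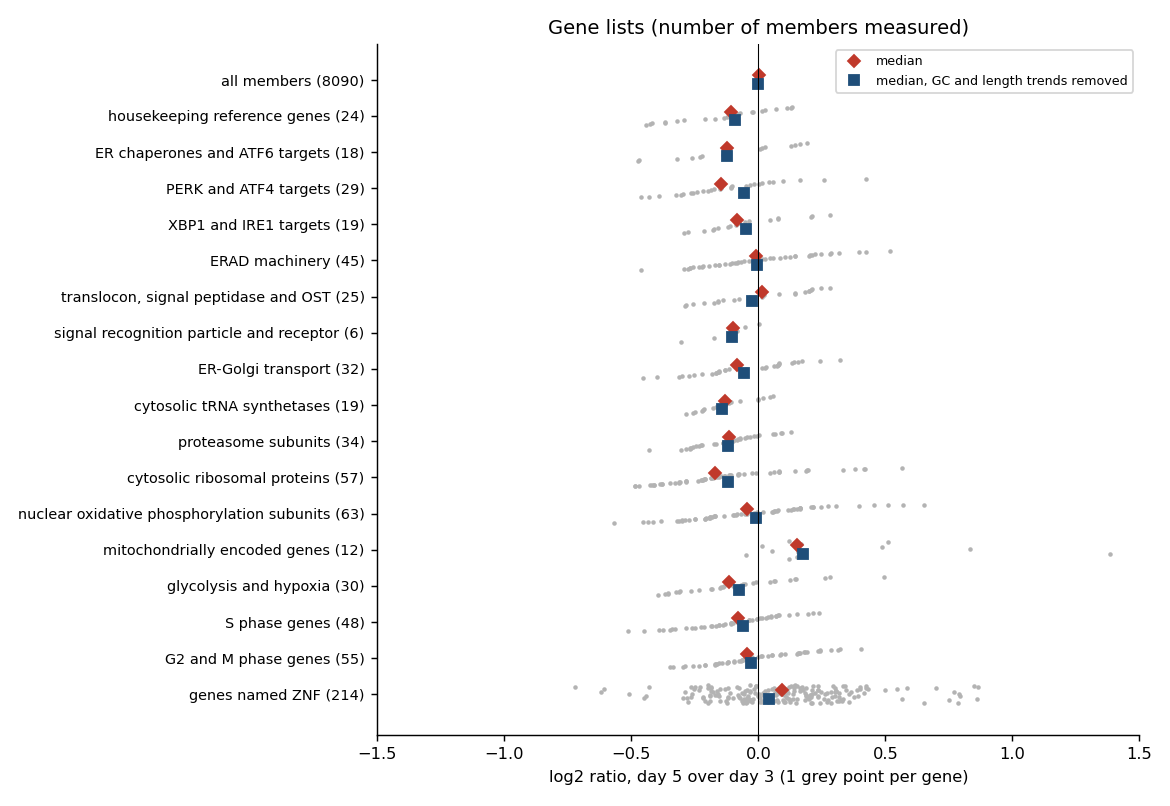
Log2 ratio of day 5 over day 3 for the measured members of 17 gene lists and for all members (numbers in brackets), with each list's median before and after trends were removed. The ER chaperone median of −0.12 lies beside the housekeeping median of −0.11, and the mitochondrially encoded genes have a median of 0.15.

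Members with the stress elements in their promoters are described next, and several of them are also on the ER chaperone list. Of 8090 members, 6518 matched a RefSeq promoter by gene ID or, failing that, by symbol. ERSE occurred in 0.0769% of all 35116 RefSeq promoters and in 10 matched members (0.153% of those matched). These 10 had a median log2 ratio of −0.15 (−0.10 with trends removed), 7 of them below day 3. Besides HSPA5 and CRELD2, those below day 3 included CALR and HSP90B1. Above day 3 were CANX (0.03), TRIM5 (0.20) and SYNPO (0.24). ERSE-II occurred in 0.0541% of promoters and in 9 matched members (0.138%), with a median of −0.14 (−0.18), 7 of them below day 3. SDF2L1, RUVBL2 and NUCB1 were the 3 of these counted lower at the 0.32 limit (5.76% of all members), and none of the 3 was with trends removed. RUVBL2, an AAA+ ATPase of chromatin complexes, was at 382.7, 439.6 and 321.3 normalised CPM (−0.45 [−0.50, −0.41], and −0.26 with trends removed). The ATF4 composite letters, in 3.62% of promoters and 127 matched members (1.95%), had a median of 0.06 (−0.02). Over all 6518 matched members the median was 0.00, and 3231 were below day 3. A match is a run of letters, not a shown binding site.

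The lowest members lay outside the lists of ER chaperones, PERK and ATF4 targets, and XBP1 and IRE1 targets. CHCHD10, a small protein of the mitochondrial intermembrane space and cristae (chr22:23765834-23768443), was at 30.0 normalised CPM at day 0, 32.3 at day 3 and 12.3 at day 5, from 575, 613 and 284 unique reads. Only the day 5 library was low. The log2 ratio of day 5 over day 3 was −1.39 [−1.60, −1.18], or 38.2% of the day 3 level, and −1.15 [−1.36, −0.95] with trends removed. Its close relative CHCHD2 was at 339.8, 437.9 and 376.0 normalised CPM, a log2 ratio of −0.22 [−0.26, −0.18] and −0.07 with trends removed. UCP2, a carrier of the inner mitochondrial membrane, was at 51.0, 46.5 and 29.1, a ratio of −0.68 [−0.83, −0.53] and −0.49 with trends removed. TOMM40, the pore of the outer membrane import complex, was at 301.6, 319.3 and 231.7 (−0.46 [−0.52, −0.41], and −0.28 with trends removed, which is inside the 0.32 limit). The 30 mitochondrial stress and import genes as a whole had a median of −0.09 (−0.04 with trends removed).

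HES4, a repressor of the HES family linked to Notch signalling (chr1:998962-1000172), was at 14.9, 16.4 and 8.77 normalised CPM. Its log2 ratio was −0.90 [−1.16, −0.64], and −0.65 [−0.92, −0.40] with trends removed. With a transcript GC content of 73.9% it lies at the far end of the GC range, where the trend is estimated from few genes. The 18 measured Notch and HES genes had a median of −0.11 (−0.07). EBPL, a relative of the sterol isomerase EBP (chr13:49660723-49691475), was at 30.9, 30.6 and 17.1 normalised CPM, a ratio of −0.84 [−1.03, −0.65] that changed little with trends removed (−0.78). Like CHCHD10 and HES4, it was level from day 0 to day 3 and low only at day 5. TXNIP, an arrestin-related inhibitor of thioredoxin and glucose uptake, instead peaked at day 3, at 7.67, 13.7 and 9.08 normalised CPM (−0.60 [−0.87, −0.33], and −0.63 with trends removed). The other members of the lowest 10 were ZNF771, LYSMD2, HKR1, DHRS1, HEBP2 and PCYOX1L, with log2 ratios between −0.72 and −0.55 and between −0.64 and −0.53 with trends removed. HEBP2, a heme-binding protein, was at 67.8, 79.9 and 54.4 normalised CPM (−0.56 [−0.66, −0.45], and −0.64 with trends removed).

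**Figure D4:**
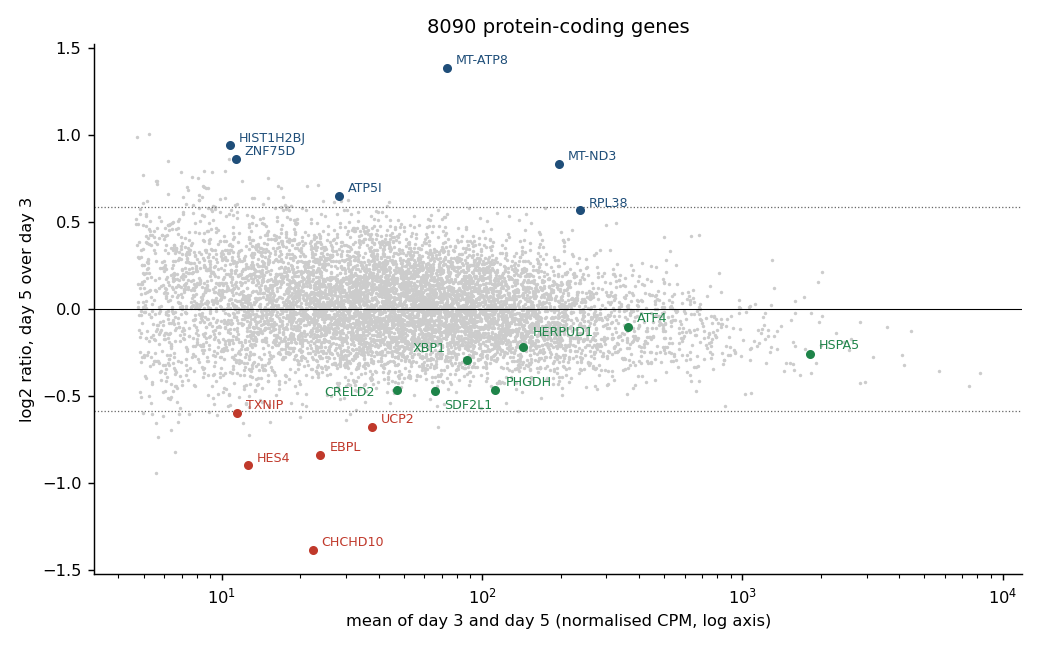
Log2 ratio of day 5 over day 3 against the mean normalised CPM of both libraries (log axis) for 8090 genes, with dotted lines at 1.5-fold. CHCHD10 (−1.39) and MT-ATP8 (1.38) stand farthest from 0, while the labelled stress genes (green) lie inside the 1.5-fold lines.

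Genes of the mitochondrial genome were higher at day 5. Of 12 measured, 11 were above day 3 (4103 of all 8090 members were), with a median log2 ratio of 0.15 (0.18 with trends removed). At the 0.32 limit 4 were counted higher (8.07% of all members). With other scalings of the same reads, 10 to 12 of the 12 were above day 3. The shortest 3 and MT-ND6 stood out. MT-ATP8, a small subunit of ATP synthase, was at 46.8 normalised CPM at day 0, 40.4 at day 3 and 105.6 at day 5, a log2 ratio of 1.385 [1.268, 1.504] and 1.27 with trends removed. Of its 2432 unique reads at day 5, 1866 were listed as intron reads although the gene has no intron, and it overlaps MT-ATP6, so its value is uncertain. MT-ND3, a subunit of complex I, was at 144.4, 141.5 and 252.4, a ratio of 0.83 [0.77, 0.90] and 0.74 with trends removed. MT-ND4L was at 336.6, 248.3 and 347.6 (0.49 [0.43, 0.54], and 0.44 with trends removed) and overlaps MT-ND4, which was at 1139, 964.6 and 973.3 (0.01 [−0.02, 0.04]). MT-ND6, encoded on the other strand, was at 36.8, 32.9 and 46.9 (0.51 [0.37, 0.66], and 0.47 with trends removed). The counting is not stated to use strand. Of the MT-ND6 unique reads, 25.7% were listed as intron reads, with log2 ratios of 0.68 on exon reads and 0.06 on intron reads. MT-CO2 was the 1 member below day 3 (−0.05 [−0.09, 0.00]). The share of all unique reads in mitochondrial genes was 0.773%, 0.661% and 0.777% on days 0, 3 and 5.

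Some of the highest nuclear members also encode very small proteins. ATP5I, the e subunit of ATP synthase, was at 16.5, 21.9 and 34.3 normalised CPM, a log2 ratio of 0.65 [0.48, 0.83] and 0.82 with trends removed. RPL38, among the smallest ribosomal proteins, was at 172.1, 190.9 and 282.6 (0.57 [0.51, 0.63], and 0.63 with trends removed), while RPL13 was at 987.7, 1260 and 899.7 (−0.49 [−0.51, −0.46], and −0.37 with trends removed). Of the 57 ribosomal proteins, 43 were below day 3 (49.3% of all members were). At the 0.32 limit 5 were counted higher (8.07% of all members) and 12 lower (5.76%). With trends removed 3 were higher (3.61%) and 8 lower (2.57%). NDUFB1 of complex I had a ratio of 0.57 [0.35, 0.79] (0.49 with trends removed) and MRPL33 of the mitochondrial ribosome 0.56 [0.41, 0.70] (0.55). Among 52 members whose annotated coding transcripts had a median length of at most 500 bases, 11 (21.2%) were counted higher at the 0.32 limit, and 13 (25%) with trends removed. Over all members the shares were 8.07% and 3.61%. They were 4.97% and 2.72% for lengths from 500 to 1000 bases, and 17.0% and 4.67% above 4000 bases. The 52 include MT-ATP8, MT-ND3 and MT-ND4L, which are among the 11, and genes such as FASN whose median is short only because short partial transcripts are annotated.

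Several other high members are zinc finger genes. ZNF280C, a zinc finger protein, was at 14.9, 7.53 and 13.7 normalised CPM, a log2 ratio of 0.86 [0.57, 1.16] and 0.71 with trends removed. Its day 3 library was the low one, and day 5 was back near day 0. ZNF75D was at 12.73, 8.004 and 14.59 (0.86 [0.59, 1.15], and 0.82 with trends removed). ZNF385B was at 12.9, 7.53 and 13.1 (0.79 [0.50, 1.09], and 0.78). Day 3 was the lowest of the 3 libraries for each of these genes. Intron reads were 7.42%, 25.8% and 19.8% of their unique reads, in the order named. On exon reads alone their log2 ratios were 0.91, 0.71 and 0.82. The 214 measured genes named ZNF had a median of 0.09 (0.04 with trends removed). At the 0.32 limit 31 were counted higher (8.07% of all members) and 7 lower (5.76%). With trends removed 16 were higher (3.61%) and 6 lower (2.57%). Their median level was 15.3 normalised CPM, and the eighths of all members at the lowest levels had medians of 0.08 and 0.04. HIST1H2BJ, a replication-type histone H2B, was at 10.1, 7.32 and 14.1 normalised CPM (0.94 [0.65, 1.24], and 1.02 with trends removed). Its counted reads were 100% unique, but 26.6% of them were listed as intron reads. The rest of the highest 10 were UBL3, VWDE and CARD6, with ratios between 0.64 and 0.74, and between 0.60 and 0.63 with trends removed. In VWDE, 23.7% of unique reads were intron reads. The 16 measured NF-kB targets and cytokines had a median of −0.02, 8 above and 8 below day 3. Of them, 2 were counted higher at the 0.32 limit (8.07% of all members were). These were CCL2 and BIRC3. CCL2, a monocyte-attracting chemokine, was at 7.15, 4.21 and 7.04 (0.74 [0.35, 1.15], and 0.70 with trends removed), and BIRC3, an NF-kB target and inhibitor of cell death, at 6.57, 6.48 and 10.6 (0.70 [0.39, 1.03], and 0.46 with trends removed).

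The 48 S phase genes had a median of −0.08 (−0.06 with trends removed), with 7 counted lower at the 0.32 limit (5.76% of all members) and none higher, or 2 lower with trends removed (2.57% of all members). SLBP, which binds histone mRNA, was at 185, 197 and 138 normalised CPM (−0.51 [−0.58, −0.45], and −0.41 with trends removed), and TK1, thymidine kinase, at 264, 290 and 212 (−0.45 [−0.51, −0.39], and −0.23 with trends removed). The 55 G2 and M phase genes had a median of −0.04 (−0.03). At the 0.32 limit 1 was counted higher (8.07% of all members) and 2 lower (5.76%).

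The libraries held 19003207, 19559795 and 22549242 unique gene reads on days 0, 3 and 5, and members took 83.0% to 83.4% of them. Total intron reads, unique or not, made up 5.59% of total gene reads at day 3 and 6.68% at day 5. Over 3690 members with at least 100 unique intron reads in those libraries, the median log2 ratio of intron reads was 0.29, against −0.02 for exon reads of the same genes. The epithelial genes fixed as a check of cell identity summed to 3616, 3852 and 3328 normalised CPM on days 0, 3 and 5. The mesenchymal genes fixed for the same check summed to more, at 8103.6, 8220.5 and 7266.1. Day 5 also held reads of genes typical of liver: over the liver and plasma protein list, 24 of 35 genes had at least 10 unique reads at day 5 and 5 at day 3, and the genes that were no members summed to 51.9 normalised CPM at day 5, 5.11 at day 3 and 4.80 at day 0. Enterocyte genes that were no members summed to 16.1, 8.21 and 8.29, and blood cell genes, none of them members, to 22.3, 16.8 and 15.2 in that order. With the 1 enterocyte member, PLS1, the enterocyte list summed to 63.5, 53.7 and 56.5. ALB and FGB had 0 unique reads at days 0 and 3, which allows up to 0.158 CPM at day 3. Their part in the member ratios was not tested; of the 3 lists only CPS1, SERPINA1 and PLS1 were members, with log2 ratios of 0.23, −0.04 and 0.06, or 0.08, 0.07 and −0.13 with trends removed.

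At the edges of the selection, C3orf33 and HARBI1 had means of 100 unique reads and log2 ratios of 0.37 and −0.48, and CHRDL1 and DNER, just outside at 99.5 reads, had 0.29 and 0.09. At the limit on unique reads, KCNJ14 and PEX10 were just inside with 0.18 and −0.29, and ZNF277 and KAT2A just outside with −0.18 and −0.08.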

How the data were processed

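Total RNA of 1 library per time was sequenced from an mRNA kit, per the labels' protocols. Per the file headers, the deposited tables give total, unique, exon and intron read counts per gene, and TPM values, with aligner, counter and strand use not given in the sources used here. A mouse build, mm10, stands in the submitters' processing notes, but gene IDs are human: 57980 of 58243 stand in GENCODE 29 (GRCh38), 97.6% with the same coordinates. The series table's 3 columns were not used.

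Unique counts were scaled with TMM factors (edgeR 4.0.16) of 1.01, 0.971 and 1.02. Log2 ratios carry a prior count of 0.5, with exact conditional binomial intervals. Trends were lowess fits (span 0.3, 3 rounds, statsmodels 0.14.6) on exon length and on GC content of the longest transcript, which 8089 members had. TPM served as an alternative. The procedure was tested on simulated data.

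Members, the 35 gene lists and genes named were chosen with earlier results of these data known. Named genes are the 5 given for this comparison, SYVN1, 4 further stress genes, the 10 highest and 10 lowest members with a mean of at least 200 reads (ranked by the ratio nearer 0, raw or trend-removed), up to 3 per list, and others chosen after their values were seen. Not all genes that this rule names are reported here.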

Additional observations from a re-analysis of the deposited data

Results flagged for a closer look

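Genes outside the members gave a signal in the day 5 library that the day 0 and day 3 libraries lacked. HPX, the plasma heme carrier, had 130 unique reads at day 5 against 1 at day 0 and 3 at day 3. TF, transferrin, had 126 against 4 and 1. FGB, a fibrinogen chain, had 122 and ALB, albumin, 114, against 0 in both other libraries. TTR, transthyretin, had 101 against 0 and 6, and FGG, another fibrinogen chain, 63 against 2 and 8. In all, 18 liver and plasma protein genes, 5 enterocyte genes and 1 blood cell gene stood higher in this way. None of them reached the minimum for members, and the source of these reads was not tested.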

How the results depend on the processing

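No paired analysis was possible because each time point has 1 library, and for the same reason no replicate could be left out. Counts of genes at least 1.5-fold higher and lower were 61 and 27, and 37 and 15 with trends removed. Requiring the whole interval beyond 1.5-fold left 5 and 3 in both cases. Library totals without TMM gave 132 and 12 (70 and 7 with trends removed), and the authors' TPM 120 and 13 (58 and 8); these scalings moved the median of all members to 0.08. Exon reads gave 94 higher before removal. A minimum mean of 50 reads gave 111 and 50 (80 and 34), of 200 reads 32 and 14 (16 and 9), and no minimum 279 and 149 (253 and 134). With no minimum unique share, 93 were higher and 99 lower, and 59 lower with trends removed. With the length trend alone removed, 58 were higher. The remaining alternatives kept each count within 1.5 times. The ER chaperone median ranged from −0.14 to −0.03 and the PERK and ATF4 median from −0.18 to −0.03 over all alternatives. Removing a trend on abundance beside GC content and length, an alternative chosen after seeing the data, gave 26 higher and 18 lower and medians of −0.08 and −0.03 for those lists. It also turned GAPDH from −0.37 to 0.026, the 1 reversal among 83 named genes counted past a log2 ratio of 0.32. CHCHD10 ranged from −1.44 to −1.13, and PHGDH from −0.56 to −0.38. Depth limits low genes most: the interval of CAVIN4, at 66 and 161 reads, ran from 0.59 to 1.44.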
